A study of Mus musculus with 16 samples.

Results

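The lateral plate mesoderm cells of chimeric mouse embryos are described here, as the study's cell type label gives them. The label had been transferred to each cell from the nearest cells of a reference atlas of mouse gastrulation, and 869 of 37841 analysed cells (2.30%) carried it, among 87 labelled types. A cell counted as Stat3 null when it came from a library sorted for tdTomato fluorescence, and as WT when it came from a tdTomato-negative library and held no tdTomato transcript. A further 10 WT-sorted lateral plate mesoderm cells with a tdTomato transcript were left out, 9 of them from library D of the E9.5 WT group.

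Lateral plate mesoderm leaves the primitive streak during gastrulation and spreads to the flanks of the embryo, where it splits into a splanchnic layer against the gut and a somatic layer under the ectoderm. The splanchnic layer, patterned by the forkhead factor Foxf1 and by Hedgehog and BMP signals, contributes the smooth muscle and mesenchyme of the viscera and, at its front, the heart. The somatic layer forms the body wall and, where Tbx5, Tbx4 and Fgf10 come on, the limb buds. STAT3 is a transcription factor that is activated downstream of cytokine receptors of the gp130 family and is known for sustaining self-renewal of mouse embryonic stem cells (ESCs).

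The embryos were chimeras made by injecting Stat3 null ESCs of CD1 background, which carried tdTomato, into WT CD1 blastocysts. By the sample labels a tube held about 10 chimeras at E7.5, about 4 at E8.5 and 1 at E9.5, whereas the study's supplement gives smaller pools at E7.5. Their tdTomato-positive cells (Stat3 null donor) and tdTomato-negative cells (WT host) were sequenced apart by droplet 3′ single-cell RNA sequencing, which counts unique molecular identifiers (UMIs). All groups share the host strain and the uterine environment, and host and donor cells of a stage had developed in the same embryos. Each sorted population gave 2 libraries at E7.5, another 2 at E8.5 and 4 at E9.5. How many Stat3 null ESC lines gave the chimeras is not given in the sources used here, and an effect of the Stat3 deletion and a property of the donor cells cannot be told apart. The E7.5 embryos had been classed as large or small, and no library was tied to a class here. Letters A to D name the libraries of a group and carry no order. Which null and WT libraries came from the same embryo pool is not known here, and p-values measure the spread between libraries, whose independence as embryos is not known either. At E9.5 the study's methods describe fewer embryos than there are libraries of a sorted population, so some of those libraries share an embryo, and SDs and p-values over them measure a spread that may be technical.

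Lateral plate mesoderm UMIs ranged from 1006459 to 7899171 per library at E7.5 and E8.5, from 33 to 208 cells. At E9.5 only WT D (63 cells, 1521829 UMIs) and null C (17 cells, 329076 UMIs) held more than 15 such cells, the minimum for a library to be tested, so E9.5 levels are given as values with no test between groups. No barcode was shared between the lateral plate mesoderm cells of different libraries. Library B of the E8.5 null group stood apart. A tdTomato UMI was seen in 69.7% of its 33 lateral plate mesoderm cells, against 92.3% of those of E8.5 null A and 94.1% to 100% of those of the null libraries of E7.5 and E9.5. Its level of Grb10, an imprinted adaptor that restrains growth factor signalling, was that of WT cells. The values without it are given beside the results that it moved most.

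The label was set beside its markers, whose levels it in part fixes, since it was given by likeness to atlas cells. At E7.5 the mean level in WT lateral plate mesoderm was 144 ± 5.32 CPM (SD, n = 2), where CPM scales UMI counts to the same total in each library, for Foxf1, the splanchnic forkhead factor, and 694 ± 106 CPM for Hand1, a bHLH factor of extra-embryonic and lateral mesoderm. Each ranked 2 among 18 cell types of that stage, behind the type labelled Mesenchyme. At E8.5 the WT means were 122 ± 19.8 CPM for Foxf1 (rank 5 of 59 types) and 117 ± 22.6 CPM for Hand1 (rank 6). In E9.5 WT D the levels were 48.0 CPM for Foxf1 (rank 9 of 54) and 25.6 CPM for Hand1 (rank 10). Both defining markers thus lay well above the median of the other types at E7.5, which was 2.98 CPM for Foxf1 and 29.4 CPM for Hand1, but at no stage were they highest in the cells that bear the label. The other lateral plate mesoderm markers listed ranked from 2 (Hand2, Foxf2, Bmp4 and Tbx20) to 13 (Irx3) at E7.5. They ranked from 2 (Bmp4) to 22 (Gata4) at E8.5 and from 4 (Isl1) to 26 (Irx3) at E9.5. At E7.5 Irx3, at 11.5 CPM, lay below the median of the other types (28.5 CPM).

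The genes that led the labelled WT cells over the median of the other types are given for each stage, among 18, 59 and 54 types in order of stage. The first 10 at E7.5 were Pmp22, Hand1, Foxf1, Spin2c, Cdx4, Pitx1, Dlk1, Nrp1, Hand2 and Hoxd9. At E8.5 they were Cdx4, a caudal homeobox factor, Pitx1, which specifies hindlimb, the antisense gene Hoxaas3, Hoxc10, Hoxc9, Phlda2, Hoxa9, Hoxc8, Hand2 and Hoxa7, with Foxf1 at rank 11. At E9.5, in WT D alone, they were Pitx1, Hoxd11, Hoxc10, Isl1, Hand2, Hoxa10, Ifitm1, Hoxa11, Hoxd13 and Cdx4. Of the genes named, only Spin2c, Cdx4 and Hoxd9 at E7.5 and Hoxc10 at E8.5 were highest in lateral plate mesoderm itself. As a description across genes, the WT profile was closest to Mesenchyme at E7.5 (Pearson's r = 0.983 over 12066 genes) and to Limb mesoderm at E8.5 (r = 0.981 over 13981 genes) and E9.5 (r = 0.982 over 14106 genes). Genes are not independent replicates, and the libraries are shared, so no p is attached. The label at E9.5 rested on weaker matches. Its median mapping score, the agreement among the atlas neighbours of a cell, ran from 0.38 to 0.64 over the E9.5 libraries, against 0.76 to 0.88 over the 8 earlier ones. In E9.5 null C, 11 of 17 cells had mapped to atlas day 7.5, and the median depth of the 17 cells was 13089 UMIs against 45760 in the whole library. Markers of neural cells (7 genes) summed to 194 CPM in E9.5 WT D and 477 CPM in null C, against 27.2 to 62.0 CPM in the 8 earlier libraries, and the 9 paraxial mesoderm markers to 91.3 CPM and 310 CPM, against 7.95 to 21.0 CPM. The part of other cell types in the E9.5 values was not tested.

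Cell by cell, Hand1 was seen in nearly all cells at E7.5 and in fewer at E8.5. With each cell thinned to 10000 UMIs, which left out no cell, 92.3% to 96.2% of the cells of the 4 E7.5 libraries held a Hand1 UMI and 71.2% to 79.1% a Foxf1 UMI, and 69.2% to 74.4% held both. At E8.5 a Hand1 UMI was held by 38.1% and 52.0% of the WT A and B cells and 50% and 78.8% of the null A and B cells, and a Foxf1 UMI by 52.4% and 71.0% of the WT and 55.1% and 87.9% of the null cells, so that Foxf1 in null B lay above every E7.5 library. The share with both was 19% in WT A (95% exact binomial interval 10.2% to 30.9%), 40% in WT B (30.3% to 50.3%), 26.9% in null A (17.5% to 38.2%) and 69.7% in null B (51.3% to 84.4%). WT and null libraries overlapped in this share, and null B was the highest of the 4. Without thinning, Hand1 was seen in 96.2% to 100% of the E7.5 cells and 70.5% to 84.8% of the E8.5 cells. In E8.5 Erythroid cells, which should lack these genes, the share after the same thinning was 0.564% for Foxf1 and 1.35% for Hand1. The median depth of those Erythroid cells before thinning was 35740 UMIs. Intervals cover counting error only.

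**Figure D1:**
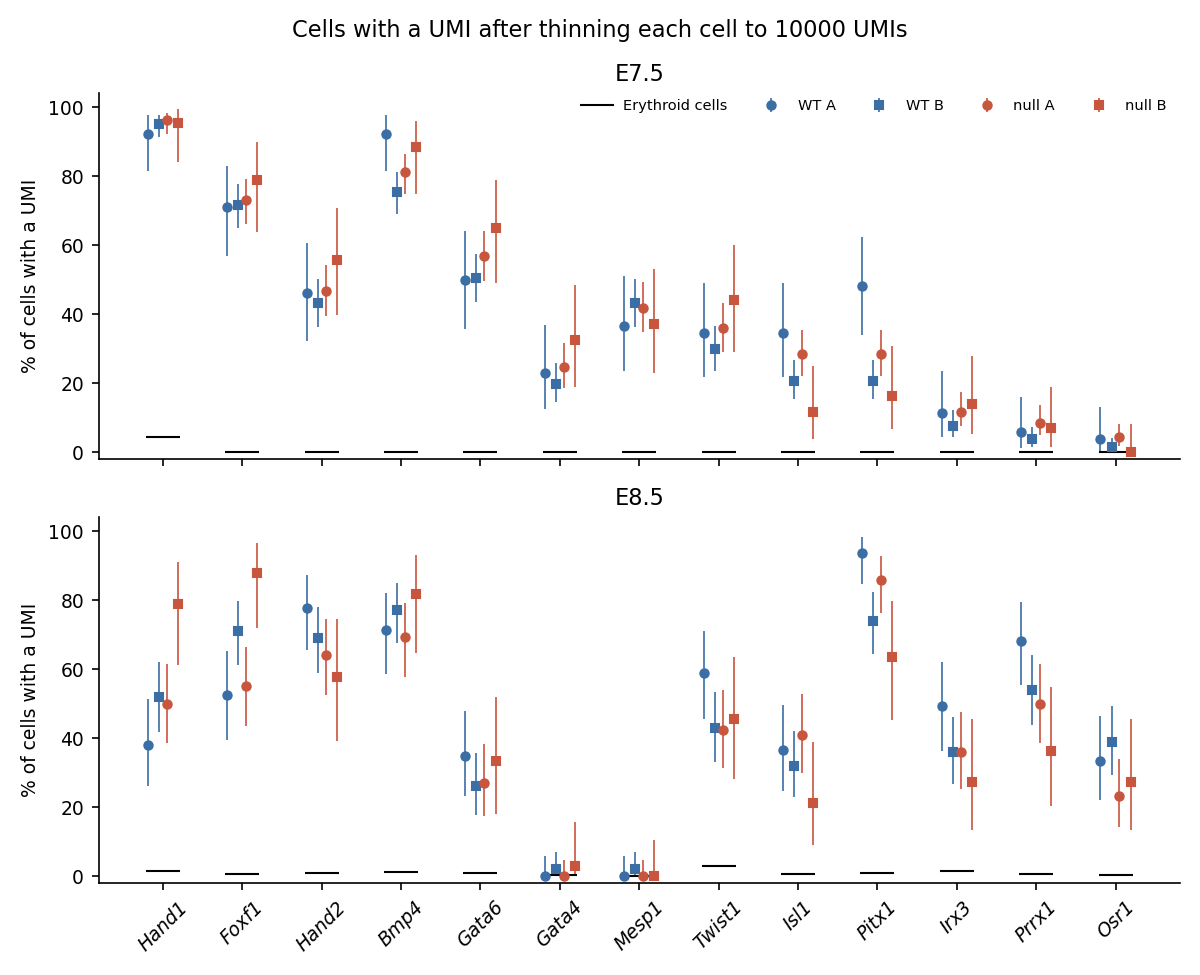
Percent of lateral plate mesoderm cells with at least 1 UMI of each gene after thinning to 10000 UMIs (y axis), per library, at E7.5 and E8.5; bars are 95% exact binomial intervals and black dashes give Erythroid cells of the stage. Prrx1 and Osr1 rise from 0% to 8.60% of cells at E7.5 to 23.1% to 68.3% at E8.5, while Mesp1 and Gata4 fall to at most 3.03%.

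The share of lateral plate mesoderm among all cells was lower at each later stage, and no difference between host and donor cells was detected at the precision of these libraries. All cells of a library were counted, extra-embryonic types included. The study describes the extra-embryonic tissue of such chimeras as WT, so host and donor shares may rest on unlike mixes of types. At E7.5 the label took 7.19% of WT A (52 of 723 cells) and 11.7% of WT B (208 of 1783), and 8.56% of null A (186 of 2172) and 11.9% of null B (43 of 360). At E8.5 the shares were 2.48% and 2.61% in WT A and B, and 2.03% and 2.88% in null A and B. The WT and null values overlapped at each of these stages. At E9.5 the shares were 0.130%, 0.114%, 0.105% and 1.59% in WT A to D, and 0.0924%, 0.0830%, 1.07% and 0.712% in null A to D. WT D and null C and D thus held far more than the other 5 E9.5 libraries.

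The mean share was 9.43% ± 3.16 in WT against 10.3% ± 2.39 in null at E7.5 (SD, n = 2 each), 2.55% ± 0.0976 against 2.46% ± 0.597 at E8.5, and 0.485% ± 0.739 against 0.489% ± 0.485 at E9.5 (n = 4 libraries each, some of which share an embryo). In edgeR's quasi-likelihood test over all types of the stage, the log2 fold change of null over WT was -0.27 ± 0.79 (SE) at E7.5, -0.07 ± 0.36 at E8.5 and -0.15 ± 1.14 at E9.5, with adjusted p = 0.980, 0.976 and 0.996. Among the types tested, 3 of 27 passed at E7.5, 0 of 68 at E8.5 and 1 of 71 at E9.5. The E7.5 value turns to 0.13 when the composition factors (TMM) are left out. A two-sided exact permutation of all 16 libraries within stages gave a difference of 0.247 percentage points (p = 0.645, smallest possible 0.000794). The effect of genotype on the share was not seen to differ between stages either, with log2 differences of -0.05 ± 1.31 (E9.5 against E8.5), -0.30 ± 1.18 (E8.5 against E7.5) and -0.62 ± 1.62 (E9.5 against E7.5), each at an edgeR adjusted p of 1.00.

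**Figure D2:**
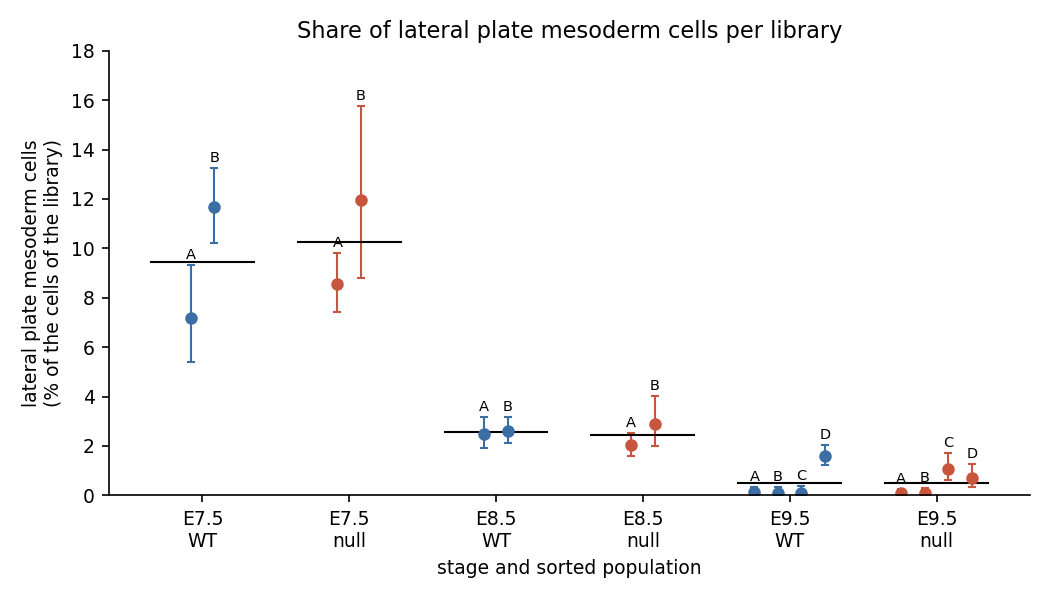
Lateral plate mesoderm cells as a percent of all analysed cells of a library (y axis), by stage and sorted population; each point is a library with its 95% exact binomial interval, and the line is the group mean. The share lies between 7.19% and 11.9% at E7.5 and at or below 2.88% afterwards, and WT and null points overlap at every stage.

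Atlas day, UMIs per cell and mitochondrial percent were compared over the 4 null and 4 WT libraries of E7.5 and E8.5 by an exact two-sided permutation test within stages, which cannot go below p = 0.0556. The atlas day came from the same atlas mapping as the label, so choosing cells by the label in part fixes it. The mean atlas day of the cells was 7.56 to 7.73 in E7.5 WT and 7.58 to 7.66 in E7.5 null libraries, and 8.40 to 8.52 in E8.5 WT against 8.21 and 8.41 in E8.5 null. The null mean differed by -0.0887 days (exact permutation p = 0.333). UMIs per cell differed by 8837 (39149 in null and 30311 in WT, exact permutation p = 0.222) and the mitochondrial percent by -0.0742 points (exact permutation p = 0.889). None of these differences could be told from the spread between libraries.

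Stat3 itself was low and lower in null cells. Its level was 6.31 and 5.50 CPM in E7.5 WT, 2.03 and 0.83 CPM in E7.5 null, 6.05 and 6.66 CPM in E8.5 WT, and 0 and 0.994 CPM in E8.5 null. At these stages no null library reached a WT library, and the mean difference was -5.17 CPM (exact permutation p = 0.0556, the smallest the design allows). The sequenced 3′ tags can lie outside the deleted internal exons, and read positions were not examined, so this level does not check the deletion itself. In the fit across genes the log2 fold change was -1.75 ± 0.48 at E7.5 (edgeR adjusted p = 0.352). At E8.5 the counts were 25 UMIs in WT and 1 in null, a ratio of 20 with a counting interval of 3.28 to 822. At E9.5 Stat3 was at 4.60 CPM in WT D, 6.08 CPM in null C and 2.94 CPM in null D, each from few UMIs. The end of Stat3 overlaps that of Stat5a on the opposite strand.

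At E7.5, null and WT lateral plate mesoderm differed in few genes. Of 10003 genes tested, 13 were called (0.13%), at an adjusted p under 0.05 and an absolute log2 fold change over 1 in edgeR's quasi-likelihood test, with 5 higher in null (0.05%) and 8 lower (0.08%). Levels are CPM of all lateral plate mesoderm UMIs of a library, and fold changes are fitted after TMM scaling.

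Grb10 fell furthest. It was at 256 and 242 CPM in WT A and B and at 4.94 and 1.24 CPM in null A and B, so the null libraries lay far below, with a log2 fold change of -5.95 ± 0.24 (edgeR adjusted p = 2.20e-08). In 1 fit over all lateral plate mesoderm libraries the log2 fold change was again -5.95 but did not pass (adjusted p = 1.00), and without E8.5 null B in that fit it was -5.94 (adjusted p = 2.33e-08). The call was lost in 5 of 16 alternatives, namely in that fit and in it with any 1 of the 4 E7.5 libraries left out, and the log2 fold change ranged over the 16 from -7.56 to -5.63. After thinning, 92.3% and 84.1% of the WT cells held a Grb10 UMI against 1.61% and 2.33% of the null cells. Grb10 (chr11:11930508-12038683, minus strand, GRCm38) is imprinted, and outside the brain is expressed mainly from the maternal allele from an upstream, GC-rich start. Its RefSeq starts in the table used here are shown because 3′ tags do not tell which of them was in use. Each window, on the minus strand of GRCm38.p6, runs from 250 bases before the start to 50 after it, and no capitals are used since no motif was found in it.
Grb10 upstream start, chr11:12037371-12037670, GC 80.0%: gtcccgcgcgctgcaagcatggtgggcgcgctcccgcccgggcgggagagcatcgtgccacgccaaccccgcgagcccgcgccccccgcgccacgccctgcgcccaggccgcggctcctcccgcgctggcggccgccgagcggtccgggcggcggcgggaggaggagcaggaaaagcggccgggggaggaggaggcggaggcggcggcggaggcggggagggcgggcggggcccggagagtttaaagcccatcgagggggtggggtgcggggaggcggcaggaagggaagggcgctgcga
Grb10 downstream start, chr11:12027922-12028221, GC 52.3%: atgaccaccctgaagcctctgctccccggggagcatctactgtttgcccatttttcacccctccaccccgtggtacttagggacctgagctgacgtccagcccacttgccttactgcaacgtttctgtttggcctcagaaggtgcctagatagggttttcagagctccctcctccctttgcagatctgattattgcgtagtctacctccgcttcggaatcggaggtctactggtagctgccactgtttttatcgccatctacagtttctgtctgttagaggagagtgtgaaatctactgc

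The genes higher in null at E7.5 included a growth factor and a protease inhibitor. Cst3, the secreted cysteine protease inhibitor cystatin C, was at 480 and 422 CPM in WT and 1085 and 993 CPM in null (log2 fold change 1.23 ± 0.11, edgeR adjusted p = 7.49e-06). Igf2, an imprinted growth factor of the embryo, was at 158 and 166 CPM in WT and 302 and 363 CPM in null (1.05 ± 0.12, edgeR adjusted p = 0.000272). For both genes the null libraries lay above the WT libraries with a gap wider than the spread within either group. In the fit over all lateral plate mesoderm libraries Cst3 was at 1.22 (adjusted p = 1.00) and was not called. Cap2, an actin-binding protein, rose from 8.25 and 8.33 CPM to 23.2 and 19.9 CPM (1.41 ± 0.25, edgeR adjusted p = 0.0187), and Thg1l, a tRNA-histidine guanylyltransferase, from 21.8 and 22.0 CPM to 39.6 and 60.5 CPM (1.17 ± 0.22, edgeR adjusted p = 0.0482). The histone gene Hist1h2ae was also higher (1.20 ± 0.14, edgeR adjusted p = 0.000272), at 125 and 95.5 CPM in WT and 256 and 233 CPM in null, but it has near-identical copies among which reads may be split. The call was lost in 9 of 16 alternatives for Thg1l, 6 of 16 for Cap2 and for Cst3, and 5 of 16 for Hist1h2ae. Among these was the fit over all lateral plate mesoderm libraries with any 1 of the 4 E7.5 libraries left out, which changed fit and libraries together. Over the 16 the log2 fold changes were 0.86 to 1.48 (Thg1l), 1.28 to 1.71 (Cap2), 1.12 to 1.32 (Cst3) and 0.98 to 1.38 (Hist1h2ae). Igf2 overlaps Igf2os on the opposite strand and Gm49394 on the same one.

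The genes lower in null at E7.5 were of mixed function. Pusl1, a pseudouridine synthase-like gene, was at 37.9 and 35.7 CPM in WT and 9.11 and 7.87 CPM in null (log2 fold change -2.05 ± 0.22, edgeR adjusted p = 0.000106), and it overlaps Ints11 on the opposite strand. Cd59a, an inhibitor of complement at the cell surface, fell from 19.9 and 17.3 CPM to 4.68 and 4.14 CPM (-2.0 ± 0.29, edgeR adjusted p = 0.00224). Akr1e1, an aldo-keto reductase, fell from 8.25 and 12.3 CPM to 1.01 and 1.24 CPM (-3.27 ± 0.44, edgeR adjusted p = 0.000868). In these 3 genes the 2 null libraries were nearly equal and well below both WT libraries. Alpl, the tissue-nonspecific alkaline phosphatase, was at 27.7 and 14.6 CPM in WT and 2.91 and 2.07 CPM in null (-2.87 ± 0.38, edgeR adjusted p = 0.00133). Rprm, a p53-responsive cell cycle inhibitor, was at 13.6 and 8.64 CPM in WT and 0.380 and 0.83 CPM in null (-4.33 ± 0.55, edgeR adjusted p = 0.000554). Glo1, which detoxifies methylglyoxal, was at 204 and 136 CPM in WT and 81.9 and 73.8 CPM in null (-1.07 ± 0.18, edgeR adjusted p = 0.0482). The call of Glo1 was lost in 8 of 16 alternatives, and its log2 fold change ranged over the 16 from -1.37 to -0.78. The call of Rprm was lost in 5 of 15, at log2 fold changes over the 15 of -4.65 to -3.54. Its losses included the fit over all lateral plate mesoderm libraries with any 1 of the 4 E7.5 libraries left out, which changed fit and libraries together. Glo1 overlaps 6 other annotated genes.

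Ttr, the transthyretin of visceral endoderm, was the last of the called genes. It gave 98 UMIs in WT and 3 in null cells, a ratio of 40 with a counting interval of 13.3 to 197, at 6.31 and 13.4 CPM in WT and 0.380 and 0 CPM in null (edgeR adjusted p = 0.000603). No other of the 3 endoderm markers tested was called. The 8 endoderm markers, Ttr included, summed to 45.6 and 82.7 CPM in E7.5 WT and 35.2 and 41.9 CPM in E7.5 null, and Apoa1 gave 6 and 60 UMIs in the WT and 7 and 0 in the null libraries. Foxa1 was at 0 in all 4 libraries, and Foxa2, Ttr, Apoa1 and Afp were at 0 in null B. The part of RNA from other cells in the Ttr difference was not tested.

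A further 3 genes passed the adjusted p alone. Tmem14c, a mitochondrial membrane protein needed for haem synthesis, was at 127 and 119 CPM in E7.5 WT and 237 and 213 CPM in null (log2 fold change 0.90 ± 0.12, edgeR adjusted p = 0.000868). Ubb, which encodes polyubiquitin, differed by 0.82 ± 0.11 on the log2 scale (edgeR adjusted p = 0.000868), and Psmd8, a subunit of the proteasome lid, by 0.58 ± 0.11 (edgeR adjusted p = 0.0482). The levels of Ubb were 788 and 658 CPM in WT and 1307 and 1195 CPM in null, without overlap.

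**Figure D3:**
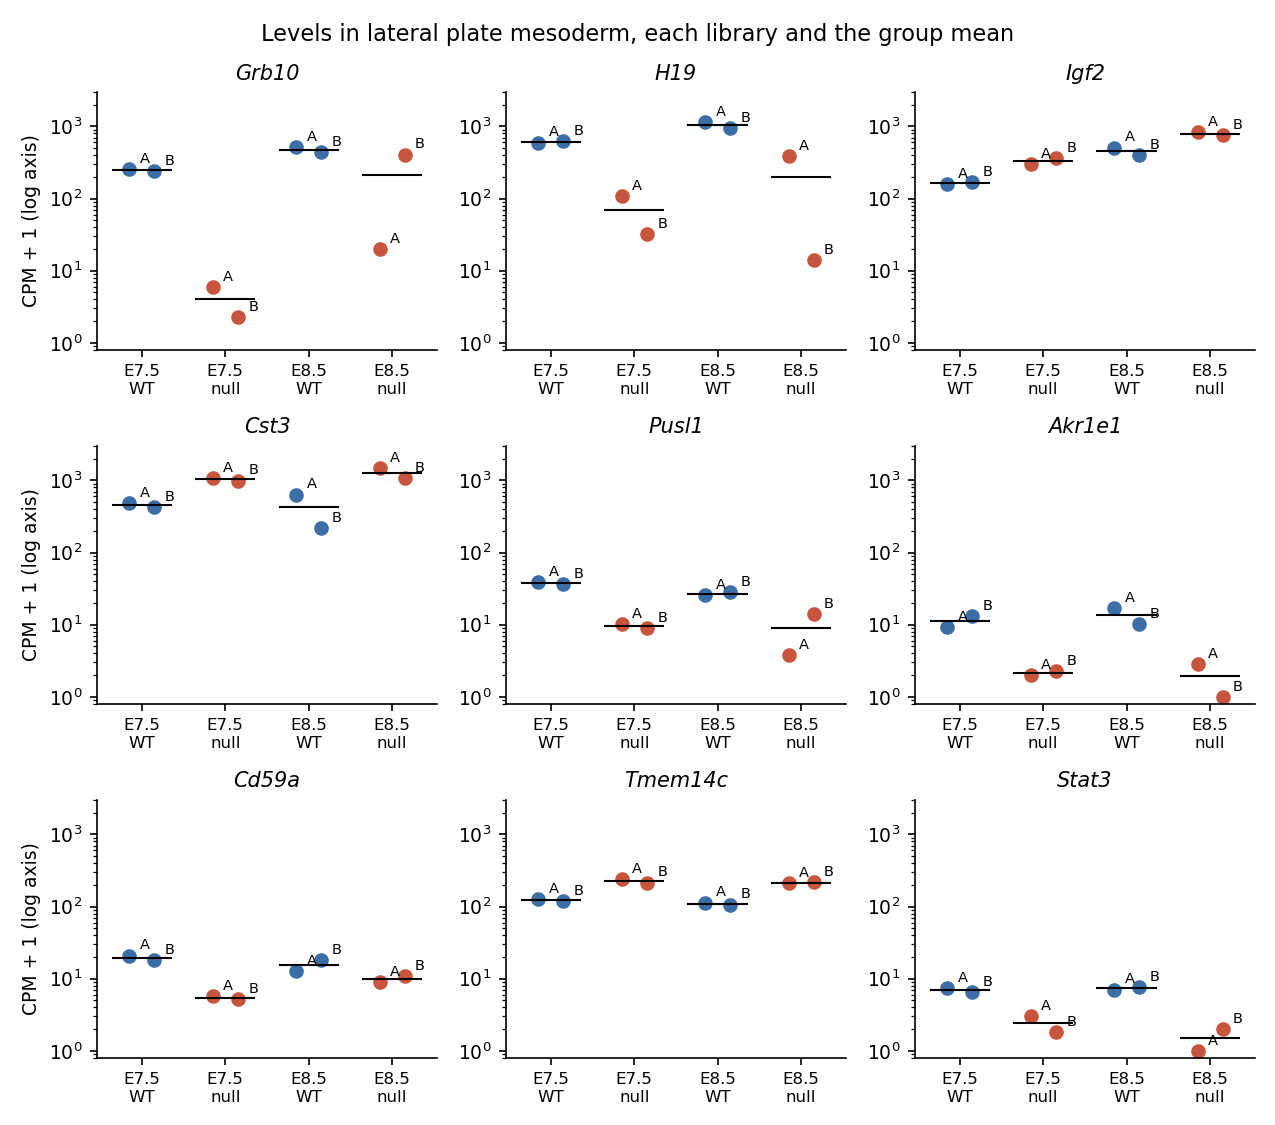
Levels of 9 genes in lateral plate mesoderm (CPM + 1, log axis) in each E7.5 and E8.5 library, with A and B naming the library and the line the group mean. Grb10 is at 4.94 and 1.24 CPM in E7.5 null cells and splits at E8.5 into 19.1 CPM in null A and 404 CPM in null B. For each of the 9 genes the null libraries lie on one side of the WT libraries at both stages. The 9 were picked from these same data, so that count is no evidence by itself. Of the 10 genes called at E7.5 and tested at E8.5, 8 kept their direction there without overlap. Of all genes tested, the libraries do not overlap in 30.4% at E7.5 and in 33% at E8.5, each stage taken alone.

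The genes by which the tissue is known were not called between null and WT. The label was given by likeness to atlas cells, so that like levels of these markers in both genotypes are in part fixed by how the cells were chosen. Of the 15 lateral plate mesoderm markers, the E7.5 fit tested all 15 and the E8.5 fit 14, and edgeR called 0 at either stage. At an unadjusted p under 0.05 there were 2 at E7.5 and 1 at E8.5. Their log2 fold changes ran from -0.28 (Foxf2) to 0.80 (Prrx1) at E7.5, with a median of 0.13 against 0.00 over all genes, and from -0.70 (Irx3) to 0.99 (Hlx) at E8.5, with a median of 0.14. Their libraries did not overlap in 3 of 15 markers at E7.5 and 4 of 14 at E8.5, against 30.4% and 33% of all genes tested.

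Foxf1 was at 148 and 140 CPM in E7.5 WT and 146 and 189 CPM in E7.5 null (log2 fold change 0.22 ± 0.14, edgeR adjusted p = 1.00), and Hand1 at 769 and 619 CPM against 538 and 673 CPM (-0.17 ± 0.14, edgeR adjusted p = 1.00). The groups overlapped for both. Hand2, a bHLH factor of heart, limb and flank, was at 79.1 and 68.2 CPM in WT and 77.5 and 70.9 CPM in null, and Bmp4, a ligand of ventral and lateral mesoderm, at 249 and 192 CPM against 230 and 246 CPM. At E8.5 Foxf1 was at 108 and 136 CPM in WT and 105 and 270 CPM in null, and Hand1 at 101 and 133 CPM against 102 and 238 CPM. Null B was highest for both and null A lay beside the WT libraries. Without null B the log2 fold change of Foxf1 at E8.5 was -0.21, and without null A it was 1.19 (edgeR adjusted p = 0.0217). Null B also had the earliest mean atlas day of the E8.5 libraries (8.21), and the part of that in its Foxf1 and Hand1 levels was not tested.

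Targets and regulators of STAT3 signalling, Stat3 included, were likewise not called. Of the 27 genes listed, the E7.5 fit tested 24 and the E8.5 fit 15, and edgeR called 0 at both stages (4 and 2 at an unadjusted p under 0.05), where 0.13% and 0.0116% of all genes were called, so that 0 calls tell little of the list. The libraries of WT and null did not overlap for 11 of the 24 at E7.5 (45.8%, against 30.4% of all genes) and 5 of the 15 at E8.5 (33.3%, against 33%). Socs3, the feedback inhibitor of the pathway, was at 7.76 and 4.09 CPM in E7.5 WT and 3.16 and 2.49 CPM in E7.5 null (log2 fold change -0.84 ± 0.46, edgeR adjusted p = 1.00). Pim1, a kinase induced by STAT factors, was at 44.2 and 36.5 CPM in WT and 68.2 and 50.1 CPM in null at E7.5 (0.63 ± 0.18, edgeR adjusted p = 0.414). The receptor subunits Il6st, which encodes gp130, and Lifr gave log2 fold changes near 0 at E7.5, at -0.10 ± 0.18 and -0.05 ± 0.20.

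Lists of BMP, Hedgehog, retinoic acid, FGF and Wnt genes, Hox genes, extracellular matrix, S phase, G2/M phase, glycolysis and p53 targets held 0 calls at both stages in edgeR, a count near the share of all genes called. The share of tested members whose WT and null libraries did not overlap ran over these lists from 0% (Hedgehog) to 53.8% (FGF, 7 of 13) at E7.5 and from 11.8% (glycolysis) to 52.9% (BMP, 9 of 17) at E8.5, against 30.4% and 33% of all genes. Aldh1a2, which makes retinoic acid, was at 13.6 and 8.64 CPM in E7.5 WT and 33.2 and 14.1 CPM in E7.5 null (log2 fold change 1.32 ± 0.42, edgeR adjusted p = 0.948). Phlda3, a p53 target, was above both WT libraries in both null libraries at each stage (0.85 ± 0.31 and 1.13 ± 0.40) without passing (edgeR adjusted p = 1.00 at both stages).

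At E8.5, 1 of 8628 genes was called (0.0116%), with 337 at an unadjusted p under 0.05. The count was 8 without null B and also 8 without null A, 3 without WT A and 0 without WT B. Hist1h4i, a replication-dependent histone gene with near-identical copies, was at 51.4 and 42.0 CPM in WT and 13.5 and 8.94 CPM in null (log2 fold change -1.95 ± 0.26, edgeR adjusted p = 0.0452). The call was lost in 9 of 15 alternatives, at log2 fold changes that ranged over all 15 from -2.34 to -1.56 and adjusted p of up to 0.988, and without null B it was at -1.78 (edgeR adjusted p = 0.0533). Tmem14c passed the adjusted p at a fold just under the threshold, with 112 and 105 CPM in WT and 208 and 216 CPM in null (0.98 ± 0.13, edgeR adjusted p = 0.0452; 0.94 without null B, adjusted p = 0.00500). Igf2 was at 507 and 398 CPM in WT and 823 and 759 CPM in null (0.83 ± 0.13, edgeR adjusted p = 0.0969; 0.86 without null B, adjusted p = 0.0343), again without overlap.

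Of the 13 genes called at E7.5, 10 could be tested at E8.5. There 9 kept their direction and 8 of these had libraries that did not overlap, against 33% of all genes at that stage, but edgeR called 0 of them, with 5 at an unadjusted p under 0.05. Akr1e1 was at 16.1 and 9.22 CPM in E8.5 WT and 1.86 and 0 CPM in null (log2 fold change -3.26 ± 0.67, edgeR adjusted p = 0.392). With a library left out the log2 fold change ran from -8.25 (without null A, against the 0 counts of null B, so no bound; adjusted p = 0.116) to -2.74 (without null B, adjusted p = 0.162), and with no filter on low counts it was called (-3.27, edgeR adjusted p = 0.000118). Pusl1 was at 24.7 and 27.2 CPM in WT and 2.80 and 12.9 CPM in null (-2.01 ± 0.49, edgeR adjusted p = 0.841), and without null B it was called at -3.19 (edgeR adjusted p = 0.00144). Glo1 was the exception in direction, at 0.03 ± 0.20. Cst3 was at 634 and 219 CPM in WT and 1487 and 1078 CPM in null (1.61 ± 0.74, edgeR adjusted p = 1.00), where the WT libraries lay far apart.

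Grb10 at E8.5 showed how far the result rests on null B. It was at 511 and 440 CPM in WT A and B, 19.1 CPM in null A and 404 CPM in null B, so that null A lay far below WT and null B just below. The log2 fold change was -1.25 ± 1.70 (edgeR adjusted p = 1.00), -4.63 without null B (adjusted p = 3.92e-06) and -0.20 without null A. All 33 lateral plate mesoderm cells of null B held a Grb10 UMI after thinning, against 8.97% of 78 cells of null A. The same split was seen in other tissues of these libraries. Over the types with more than 15 cells the median Grb10 level was 276 CPM in null B (58.1 to 698 CPM over 23 types) and 12.5 CPM in null A (0 to 126 CPM over 50 types). At E9.5 Grb10 was at 261 to 482 CPM in the lateral plate mesoderm of the 4 WT libraries and 2.94 to 48.1 CPM in that of the 4 null libraries.

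H19, the imprinted non-coding RNA next to Igf2, was low in every null library, null B included. It was at 593 and 629 CPM in E7.5 WT, 106 and 31.1 CPM in E7.5 null, 1158 and 952 CPM in E8.5 WT, and 382 and 12.9 CPM in E8.5 null. The null libraries lay below the WT libraries at both stages but far apart from each other, and the test did not pass (log2 fold change -3.02 ± 0.69 at E7.5 and -2.30 ± 1.54 at E8.5, edgeR adjusted p = 1.00 at both). With a library left out the E8.5 value ran from -6.31 (without null A, adjusted p = 0.512) to -1.46 (without null B, adjusted p = 1.00), and at E7.5 DESeq2 called it (-3.14, adjusted p = 0.0267). Of 22 imprinted growth genes tested at E7.5, 1 was higher (Igf2) and 1 lower (Grb10), against 0.05% and 0.08% of all genes. Impact, a paternally expressed regulator of translation, was at 41.3 and 34.4 CPM in WT and 60.1 and 61.7 CPM in null at E7.5 (0.73 ± 0.17, edgeR adjusted p = 0.141). Cdkn1c, Peg3, Meg3 and Dlk1 differed by 0.31 or less on the log2 scale at E7.5. At E8.5 the libraries did not overlap for 9 of 21 imprinted growth genes tested (42.9%, against 33% of all genes), and edgeR called none of them. Among these were Dlk1 (138 and 151 CPM in WT, 116 and 15.9 CPM in null A and B; log2 fold change -0.94 ± 0.92), Plagl1 (1.59 ± 0.48), Slc38a4 (0.90 ± 0.25), Mest (-0.25 ± 0.10), Impact (0.43 ± 0.19) and Ndn (-0.29 ± 0.13), each at an edgeR adjusted p of 1.00.

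A list of 16 genes that had shifted in other null tissues of these same libraries is not independent evidence, since it was chosen on them. Of its 10 members tested at E7.5, 1 was called higher (Igf2) and 3 lower (Grb10, Akr1e1, Cd59a), and 0 of 9 were called at E8.5, against 0.05% and 0.08% of all genes at E7.5 and 0.0116% at E8.5. The WT and null libraries did not overlap for 9 of the 10 at E7.5 and 8 of the 9 at E8.5, against 30.4% and 33% of all genes. The zinc finger genes Zfp984 and Zfp985, which belong to a family of close copies, were 1.20 ± 0.31 and 1.29 ± 0.33 higher on the log2 scale at E7.5 (edgeR adjusted p = 0.278 and 0.268).

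The genotype effect was not shown to differ between E7.5 and E8.5. In a test of the interaction, chosen after the E9.5 libraries proved too small, edgeR called 0 of 9328 genes (254 at an unadjusted p under 0.05) and DESeq2 called 0. For Grb10 the difference was 4.69 ± 2.19 on the log2 scale (edgeR adjusted p = 1.00).

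Nor was the genotype effect shown to differ from that in neighbouring tissues. The difference between the 2 types was taken within each library, and limma called 0 genes against Intermediate mesoderm at E7.5 (9667 tested, 357 at an unadjusted p under 0.05), 0 against Mesenchyme at E7.5 (9677 tested, 360) and at E8.5 (9448 tested, 391), and 0 against Limb mesoderm at E8.5 (9130 tested, 360). Grb10 fell in Intermediate mesoderm (log2 fold change -6.17) and Mesenchyme (-5.51) at E7.5 much as in lateral plate mesoderm. Pusl1 gave -1.96, -2.13 and -2.05 in the same 3 tissues at E7.5, and at E8.5 -2.01 in lateral plate mesoderm, -0.98 in Mesenchyme and -2.1 in Limb mesoderm, where it was called (edgeR adjusted p = 0.000355). Cd59a at E7.5 was at 0.58 in Intermediate mesoderm and -1.72 in Mesenchyme against -2.0 in lateral plate mesoderm, with differences of -2.59 ± 0.35 and -0.46 ± 0.49 (limma adjusted p = 0.999 and 1.00 over all genes). Cst3 was at 0.33 in Intermediate mesoderm and 0.91 in Mesenchyme.

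The STAT-type motif TTCNNNGAA, whose reverse complement is the same motif, was searched in the promoter windows of RefSeq. Of the 13 genes called at E7.5, 11 had a window, 17 windows in all, and 1 of 17 (5.88%) held a match. Among all windows the share was 8.30% (2726 of 32851), and 6.40% among the windows of genes tested at E7.5. The match was in Thg1l, whose window is shown with the site in capitals, 46 bases before the start on the minus strand of GRCm38.p6. That start lies inside the gene as annotated (chr11:45946843-45955494), and so does the site, while the window of the other Thg1l start held no match.
Thg1l, chr11:45955139-45955438: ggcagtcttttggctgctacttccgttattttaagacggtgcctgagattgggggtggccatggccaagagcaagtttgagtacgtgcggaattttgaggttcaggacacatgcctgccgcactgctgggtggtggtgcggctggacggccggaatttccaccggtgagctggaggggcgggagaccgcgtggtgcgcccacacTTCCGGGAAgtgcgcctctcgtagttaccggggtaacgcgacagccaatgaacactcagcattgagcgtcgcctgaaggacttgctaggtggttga
Of the lateral plate mesoderm markers, 10 had a window and 0 of 10 held a match. No match says only that these letters are not in the window.

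The tissue changed far more with stage than with genotype. In WT cells 755 of 8894 genes were called between E7.5 and E8.5 (8.49%), 382 higher at E8.5 (4.3%) and 373 lower (4.19%). In null cells, compared as a second set of libraries after the data had been seen, 504 of 8966 were called (5.62%), 278 higher (3.1%) and 226 lower (2.52%). The call lists shared 367 genes, which are 48.6% of the WT calls and 72.8% of the null calls, and all 367 moved in the same direction. Of 684 WT calls that were tested in null cells, 676 had the same sign there. The stages were separate libraries from separate embryos, so stage and batch of libraries cannot be told apart. Null and WT cells of a stage had developed in the same embryos, so the WT and null stage comparisons are not independent.

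Among the 15 lateral plate mesoderm markers, WT cells showed 3 higher and 3 lower at E8.5, and null cells 4 higher and 3 lower, against 4.3% and 4.19% of all genes in WT and 3.1% and 2.52% in null. Prrx1, a homeobox gene of limb and body wall mesenchyme, rose from 4.85 and 4.87 CPM to 132 and 111 CPM (log2 fold change 4.72 ± 0.21, edgeR adjusted p = 9.10e-12), and in null cells from 10.4 and 4.97 CPM to 107 and 83.5 CPM (3.58 ± 0.25, edgeR adjusted p = 5.21e-06). Osr1, a zinc finger factor of lateral and intermediate mesoderm, rose from 3.88 and 2.20 CPM to 44.3 and 60.5 CPM in WT (4.37 ± 0.30, edgeR adjusted p = 3.96e-09) and by 3.65 ± 0.38 in null. Irx3, an Iroquois factor of the proximal limb field, rose by 3.16 ± 0.38 in WT and 2.40 ± 0.30 in null. For all 3 every E8.5 library lay above every E7.5 library, and the stages did not overlap in 61.2% of all genes tested in WT cells and 55.5% in null cells. Twist1, a bHLH factor of mesenchyme, was called only in the null comparison (1.34 ± 0.20), with 1.54 ± 0.43 in WT (edgeR adjusted p = 0.134), and the difference between the comparisons was not past the threshold for any gene.

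Hand1, Gata4 and Tbx20 were called lower in WT. Hand1 went from 769 and 619 CPM to 101 and 133 CPM in WT (log2 fold change -2.48 ± 0.15, edgeR adjusted p = 2.65e-06) and from 538 and 673 CPM to 102 and 238 CPM in null (-1.77 ± 0.52, edgeR adjusted p = 0.188; -2.50 without null B of E8.5, adjusted p = 0.000147). In the fit over all libraries of the tissue, the WT fall of Hand1 missed the threshold when any of the 4 WT libraries was left out, at log2 fold changes of -2.67 to -2.30. Gata4, a zinc finger factor of cardiac and splanchnic mesoderm, went from 28.6 and 28.8 CPM to 0 and 4.61 CPM in WT (-3.54 ± 0.58, edgeR adjusted p = 0.00357) and by -3.50 ± 0.47 in null. Tbx20, a cardiac T-box factor, changed by -3.38 ± 0.30 in WT and -2.93 ± 0.31 in null. Gata6 changed by -0.93 ± 0.16 in WT, under the fold threshold, and by -1.15 ± 0.17 in null.

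Foxf1, Bmp4 and Isl1 were not called in WT. Foxf1 changed by -0.15 ± 0.13 in WT (edgeR adjusted p = 0.437) and Bmp4 by -0.13 ± 0.13 (adjusted p = 0.515). Hand2 rose from 79.1 and 68.2 CPM to 131 and 138 CPM in WT, a change of 0.98 ± 0.13 that passed the adjusted p (2.03e-05) but not the fold. Isl1, a LIM-homeobox factor of hindlimb and cardiac progenitors, was at 52.4 and 26.2 CPM and at 66.5 and 40.5 CPM in WT, and the stages overlapped. The median over the 15 markers was -0.13 in WT and 0.24 in null, against -0.01 and 0.00 over all genes.

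**Figure D4:**
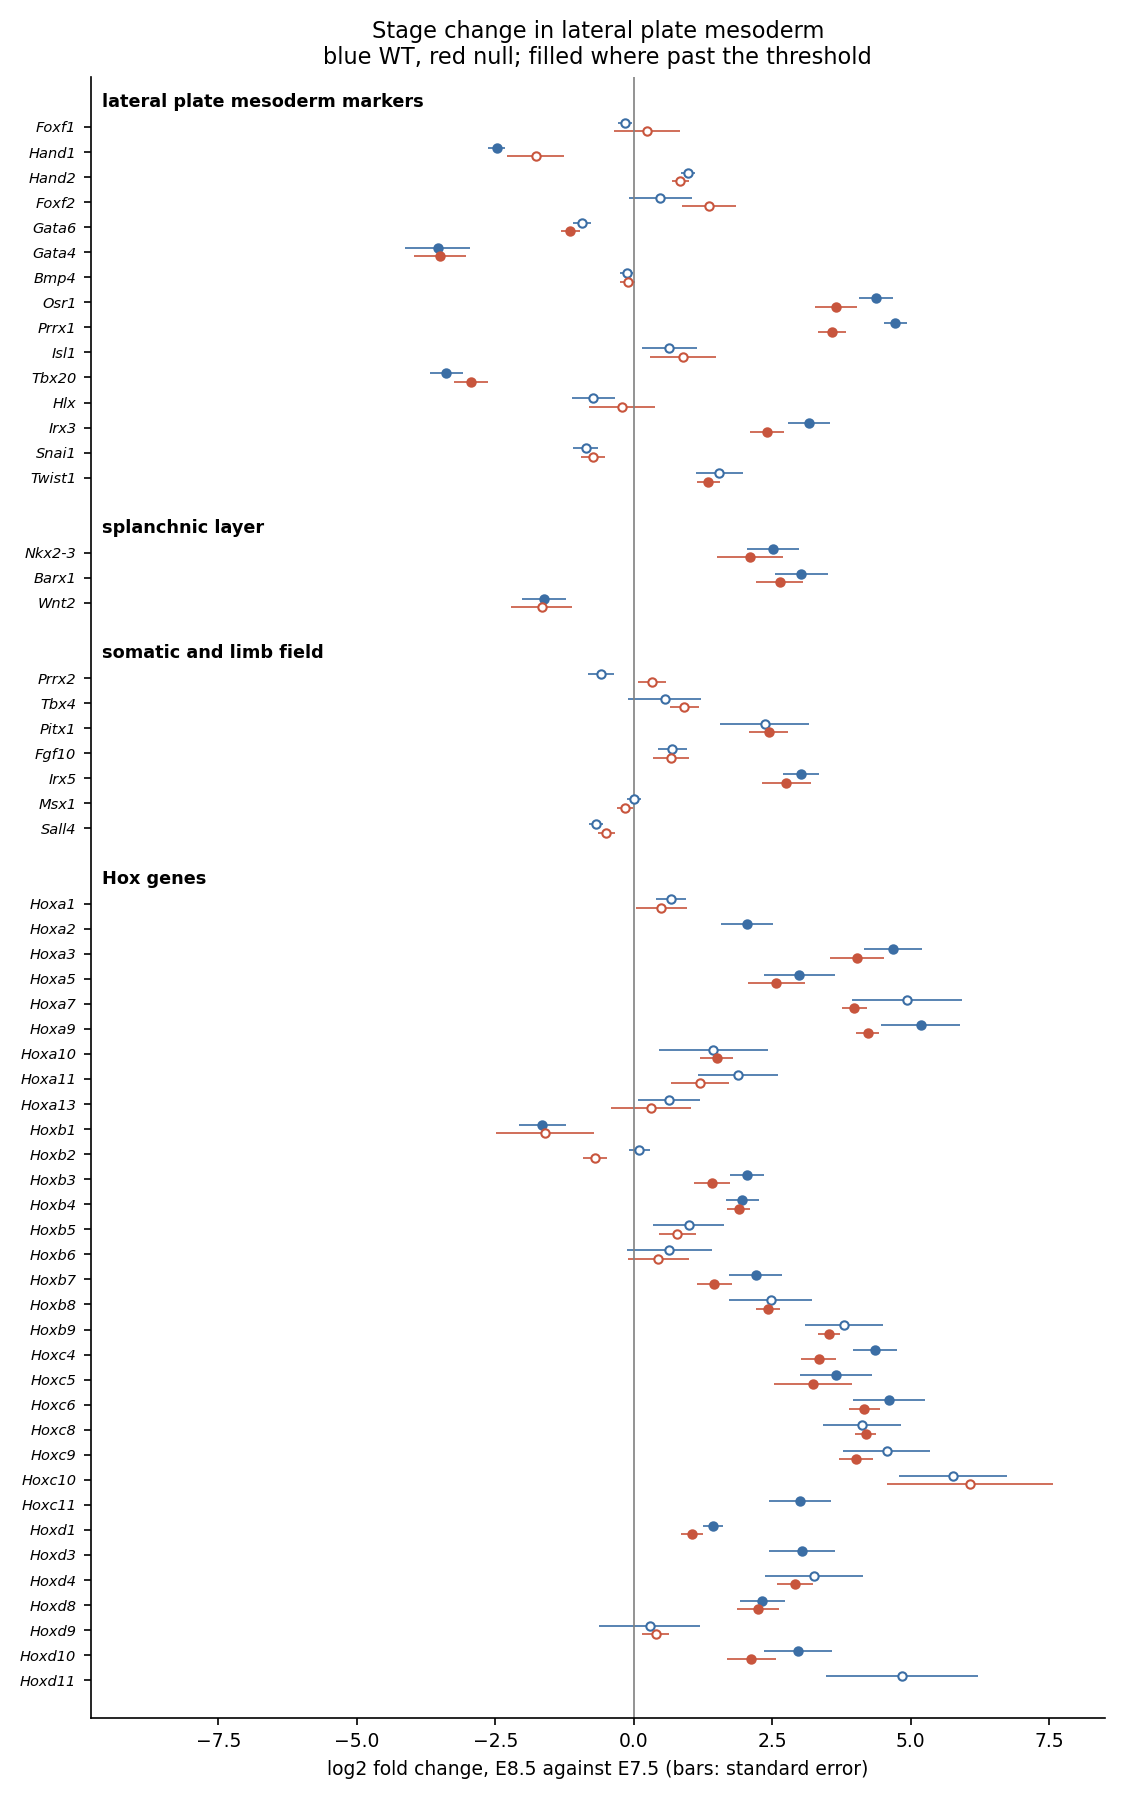
log2 fold change of E8.5 over E7.5 (x axis, with standard error) for lateral plate mesoderm markers, splanchnic, somatic and limb field genes and Hox genes, in WT (blue) and null cells (red); filled points passed an adjusted p under 0.05 and an absolute log2 fold change over 1. Prrx1, Osr1, Irx3 and most Hox genes lie to the right, Hand1, Gata4 and Tbx20 to the left, and the red and blue points run together.

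In the splanchnic list, 2 of 9 tested genes rose in WT, namely Nkx2-3, a homeobox factor of gut mesenchyme and spleen (2.51 ± 0.47), and Barx1, of stomach mesenchyme (3.03 ± 0.48), and 3 fell, namely Gata4, Tbx20 and Wnt2, a ligand of lung and second heart field mesoderm (-1.62 ± 0.40). In the somatic and limb list, 3 of 10 rose in WT (Prrx1, Irx3 and Irx5) and 5 of 10 in null (those and Pitx1 and Twist1). Of all genes, 4.3% were called higher and 4.19% lower in WT, and 3.1% and 2.52% in null. Pitx1 went from 110 and 35.0 CPM to 371 and 258 CPM in WT (2.37 ± 0.80, edgeR adjusted p = 0.230) and from 54.6 and 38.5 CPM to 312 and 159 CPM in null (2.43 ± 0.35, edgeR adjusted p = 0.0157). The null call was lost in 5 of 13 alternatives, at log2 fold changes over the 13 of 1.84 to 2.76. Its losses included the fit over all lateral plate mesoderm libraries with any 1 of the 4 null libraries left out. Fgf10, the limb outgrowth ligand, was at 12.6 and 13.5 CPM and at 22.2 and 17.9 CPM in WT without passing (0.69 ± 0.26, adjusted p = 0.0715), and Tbx5, the forelimb factor, was too low to test. Cfc1, a Nodal co-receptor, fell in WT (-4.06 ± 0.76, edgeR adjusted p = 0.0472).

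Of 32 Hox genes tested in WT, 15 were called higher and 1, Hoxb1, lower, with a median log2 fold change of 2.71, and of 28 tested in null cells 19 were called higher and 0 lower, with a median of 2.18, against 4.3% of all genes called higher in WT and 3.1% in null. Hoxa9 went from 11.6 and 2.04 CPM to 169 and 151 CPM in WT (5.18 ± 0.72, edgeR adjusted p = 0.0473) and from 8.74 and 5.80 CPM to 145 and 124 CPM in null (4.22 ± 0.21). Hoxc4 went from 3.40 and 0.943 CPM to 31.7 and 31.3 CPM in WT (4.35 ± 0.39), and Hoxd1 from 34.0 and 26.7 CPM to 79.1 and 70.2 CPM (1.43 ± 0.18). Hoxb1, active in the earliest posterior mesoderm, went from 67.9 and 39.1 CPM to 10.1 and 20.5 CPM in WT (-1.66 ± 0.42, edgeR adjusted p = 0.0481). A pair of antisense genes of these clusters were among the largest rises, Hoxaas3 (7.46 ± 0.66, 17 UMIs to 1385) and Hoxb5os (7.23 ± 0.28, 10 UMIs to 691), but they overlap Hoxa3 to Hoxa7 and Hoxb5 and Hoxb6 on the opposite strand.

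The other largest rises in WT cells included Nr2f2, an orphan nuclear receptor of mesenchyme, from 2.43 and 2.36 CPM to 86.1 and 66.1 CPM (log2 fold change 5.07 ± 0.27, edgeR adjusted p = 1.07e-10), and Mgst1, a glutathione transferase, from 5 to 60 UMIs (4.68 ± 0.50). Mnx1, a homeobox gene of posterior and foregut tissues, had 0 UMIs at E7.5 and 32 at E8.5, at least 22.8-fold higher against a limit of 3 UMIs over the E7.5 group, and Scg5, a secretory granule protein, 0 and 24 UMIs, at least 17.1-fold higher. Col3a1, a fibrillar collagen, had 2 and 45 UMIs, with a ratio of E7.5 to E8.5 of 0.0208 (counting interval 0.00244 to 0.0795), and Sema3a, a guidance ligand, 2 and 27 UMIs, with a ratio of 0.0346 (0.00399 to 0.138). In null cells Foxd1, a forkhead factor of stromal mesenchyme, had 2 UMIs at E7.5 and 75 at E8.5 (ratio 0.00815, 0.000969 to 0.0305), and Pla2g7 and Scube1 rose by 4.32 ± 0.60 and 4.20 ± 0.66.

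The largest falls included Mesp1, Fgf3 and Pou5f1. Mesp1, the transient bHLH factor of mesoderm leaving the streak, had 1137 UMIs in E7.5 WT and 3 in E8.5 WT, a ratio of 177 (counting interval 60.5 to 860), and 1278 against 2 in null cells, a ratio of 195 (54.0 to 1614). Fgf3, a ligand of streak and later of the ear, went from 124 and 148 CPM to 0 and 6.66 CPM in WT (log2 fold change -5.27 ± 0.68, edgeR adjusted p = 0.0224). Pou5f1, the pluripotency factor OCT4, went from 97.5 and 127 CPM to 1.51 and 5.64 CPM (-4.90 ± 0.31, edgeR adjusted p = 3.19e-07) and by -4.15 ± 0.45 in null cells. Brachyury (gene symbol T), the T-box factor of the streak, was called lower in both comparisons. Serpinb9, Cyp2s1, Rem1 and Ccnb1ip1 had 81, 58, 53 and 49 UMIs at E7.5 and 0 at E8.5 in WT, at least 12.6-, 9.03-, 8.26- and 7.63-fold lower against 3 UMIs over the E8.5 group, and Alox15 had 291 and 0 UMIs in null, at least 29.6-fold lower. Vrtn had 204 UMIs at E7.5 and 1 at E8.5 in WT, a ratio of 95.3 (counting interval 16.9 to 3784), Defa30 had 136 and 1, a ratio of 63.6 (11.2 to 2529), and Serpinb9b 89 and 1, a ratio of 41.6 (7.28 to 1661). Serpinb9, Serpinb9b and Defa30 have close copies among which reads may be split.

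Markers of the primitive streak were among the genes called between stages. The 6 summed to 162 to 217 CPM in the 4 E7.5 libraries and 18.2 to 62.6 CPM in the 4 E8.5 libraries, with null B highest at E8.5, and 4 of the 5 tested in WT were called lower (T, Mixl1, Mesp1 and Fgf8) and 3 of the 5 tested in null (T, Mixl1 and Mesp1), against 4.19% and 2.52% of all genes. Mixl1 had 75 UMIs at E7.5 and 3 at E8.5, a ratio of 11.7 (counting interval 3.85 to 57.9). The 6 surface ectoderm markers, mostly Krt8 and Krt18, summed to 1204 to 1314 CPM at E7.5 and 424 to 849 CPM at E8.5, the 8 cardiac markers to 90.3 to 181 CPM and 19.9 to 58.4 CPM, and the 9 paraxial markers to 7.95 to 21.0 CPM over all 8 libraries. The 6 allantois markers summed to 430 to 769 CPM at E7.5 and 242 to 457 CPM at E8.5. The 8 endothelial markers summed to 107 to 179 CPM at E7.5 and 17.1 to 113 CPM at E8.5, the 8 endoderm markers to 35.2 to 82.7 CPM and 11.6 to 20.9 CPM, the 6 mesothelium markers to 70.9 to 107 CPM and 31.7 to 53.7 CPM, and the 9 blood markers to 32.5 to 89.1 CPM and 8.94 to 46.1 CPM. The embryonic haemoglobin genes, which were left out of the tests, went the other way. Hba-x had 0 to 107 UMIs in the E7.5 libraries and 159 to 2191 in the E8.5 libraries, and Hbb-y 0 to 3 and 43 to 1413. The part of other cell types in the stage differences was not tested.

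Signalling genes were called in both directions. Among BMP genes, 4 of 18 tested were called lower in WT and none higher, against 4.19% and 4.3% of all genes, shares that hold for the FGF and Wnt lists below too. The 4 were the ligands Bmp2 (log2 fold change -2.99 ± 0.59) and Bmp7 (-2.16 ± 0.32), the inhibitory Smad6 (-1.44 ± 0.29) and the target Msx2 (-1.5 ± 0.17). Msx1 was level at 243 and 223 CPM and 249 and 191 CPM. Of 12 FGF genes tested, Dusp6 (1.35 ± 0.28), Etv4 (1.14 ± 0.25) and Spred2 (1.18 ± 0.27), which are readouts, were called higher. The ligand Fgf8 (-3.19 ± 0.51) and the receptors Fgfr2 (-1.24 ± 0.24) and Fgfr3 (-3.0 ± 0.43) were called lower. The other readouts listed, Etv5, Spred1, Spry1, Spry2 and Spry4, were not called. Of 14 Wnt genes tested, Wnt5b (1.70 ± 0.25), the nuclear effector Lef1 (1.35 ± 0.14) and the antagonists Notum (1.97 ± 0.47) and Sfrp2 (2.19 ± 0.29) were called higher, and Wnt2 and the agonist Rspo3 (-1.79 ± 0.32) lower. Lef1 was at 94.6 and 71.8 CPM at E7.5 and 201 and 188 CPM at E8.5 in WT, and at 99.6 and 76.2 CPM and 184 and 180 CPM in null.

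Of 9 genes of retinoic acid handling tested in WT, Dhrs3 (3.14 ± 0.67) and the binding proteins Crabp1 (1.62 ± 0.27) and Crabp2 (3.45 ± 0.41) were called higher. Cyp26a1, which degrades retinoic acid, was called lower (log2 fold change -2.01 ± 0.45), where 4.3% of all genes were called higher and 4.19% lower. In null cells Crabp1 and Dhrs3 rose and Cyp26a1 fell, and Crabp2 gave 3.50 ± 0.79 (edgeR adjusted p = 0.125). Against the same shares of all genes, 18 matrix genes were tested in WT. The collagens Col1a2 (2.34 ± 0.33), Col3a1 and Col5a2 (1.62 ± 0.31) and the laminin Lama1 (1.23 ± 0.32) were called higher. Col4a2, Fbn1, Lama4, Hapln1 and Sparc were called lower, Sparc from 188 and 193 CPM to 60.5 and 74.3 CPM (-1.42 ± 0.13). No Hedgehog gene was called among 7 tested, nor any of the 19 S phase or 21 G2/M genes. Glycolysis had 1 call of 17, Pfkp (-1.51 ± 0.25), the p53 list 2 of 11, Phlda3 and Perp, and the STAT3 list 1 of 19, Stat6 (-2.18 ± 0.46), where 8.49% of all genes were called, so that single calls are near that share.

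The genotype comparison at E7.5 and the stage comparison in WT share the 2 E7.5 WT libraries, so a chance level there enters both, and their calls are not independent. In the stage comparison Rprm (log2 fold change -2.43 ± 0.55, edgeR adjusted p = 0.00457), Ttr (-2.31 ± 0.53, adjusted p = 0.00534) and Cap2 (-1.35 ± 0.43, adjusted p = 0.0355) were lower at E8.5, and Igf2 and Grb10 were higher. Igf2 went from 158 and 166 CPM to 507 and 398 CPM in WT (log2 fold change 1.56 ± 0.12, edgeR adjusted p = 7.39e-08) and by 1.36 ± 0.14 in null, and Grb10 by 1.03 ± 0.10 in WT (adjusted p = 4.75e-07). Of 20 imprinted growth genes tested in WT, 6 were called higher (Igf2, Grb10, Igf2r, Sgce, Nnat and Ndn) and none lower, against 4.3% and 4.19% of all genes. Phlda2 was not called, although its mean in WT went from 3275 CPM at E7.5 to 656 CPM at E8.5. The E7.5 levels of Igf2 in null cells, 302 and 363 CPM, lay between the WT levels of the 2 stages.

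At E9.5 the few cells allow values only. In WT D (63 cells) Prrx1 was at 219 CPM, Twist1 at 302 CPM, Isl1 at 212 CPM, Pitx1 at 263 CPM, Osr1 at 44.0 CPM, Hand2 at 112 CPM and Gata4 at 0.657 CPM. In null C (17 cells) Prrx1 was at 115 CPM, Twist1 at 237 CPM, Isl1 at 103 CPM, Pitx1 at 79.0 CPM and Hand2 at 72.9 CPM, and Osr1 had no UMI. Igf2 was at 409 CPM in WT D and 605 CPM in null C, and at 261 to 413 CPM over the 4 WT and 605 to 1089.9 CPM over the 4 null libraries. Cst3 was at 138 to 318 CPM and 358 to 1689 CPM, and Akr1e1 at 8.15 to 34.7 CPM and 0 to 9.62 CPM. Grb10, Igf2, Cst3 and Akr1e1 were picked for their calls at E7.5. The WT and null libraries overlapped at E9.5 for Akr1e1 and not for Grb10, Igf2 and Cst3. The share of all genes without overlap was not counted at E9.5, so nothing is drawn from this. The libraries besides WT D and null C held 2 to 11 cells, and some E9.5 libraries share an embryo.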

How the data were processed

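The authors sequenced the tdTomato-positive and tdTomato-negative cells of chimeric embryos by droplet 3′ single-cell RNA sequencing, processed with Cell Ranger on mm10 according to the submitters' processing notes. They deposited UMI counts per gene and cell and a table of 192657 barcodes, in which the authors give the mitochondrial percent, ribosomal fraction values, and the doublet and mapping score of each cell. Cells that passed the authors' quality control held 10003 to 99964 UMIs. Doublets were taken as the authors called them (3395 of 41832 cells, 8.12%) and left out, as were 596 WT-sorted cells with a tdTomato UMI.

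UMI counts of lateral plate mesoderm cells were summed per library with over 15 such cells, and genes were tested with edgeR 4.0.16 in R 4.3.3 (quasi-likelihood, robust, filterByExpr, TMM), with Benjamini-Hochberg adjustment over all genes tested. Called means an adjusted p under 0.05 and an absolute log2 fold change over 1, and SE is the log2 fold change over the root of the F statistic. Of 29453 genes, 8184 were left out (Xist, Tsix, the tdTomato transcript, and predicted, mitochondrial, ribosomal, Y-linked or haemoglobin genes), whereas imprinted genes, which the study set aside, were kept. Shares of types with at least 20 cells were tested by edgeR on cell counts. Differences between tissues used limma 3.58.1 on log2 CPM with a prior count of 2. Single values used exact two-sided permutation tests within stages. DESeq2 1.42.0, limma-voom, other scalings, filters and cell sets, and each library left out were the alternatives. Methods were tested on simulated data. Leading genes were ranked with a pseudocount of 5 CPM.

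Genes named are the called genes, the 10 largest changes in each direction by stage, and members of the lists. The members and lists were chosen with earlier results of these data known. Library names match no label that gives a replicate number or embryo pool, so the study's term for the pool could not be fitted. The planned tests of E9.5 expression could not be made, since only 1 library of each group held over 15 cells. Promoter windows are RefSeq's on GRCm38.p6, and gene coordinates are GRCm38. A listed gene is not reported here.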

Additional observations from a re-analysis of the deposited data

Results flagged for a closer look

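Groups of 4 libraries exist only at E9.5. There 11 measures in each sorted population, 22 groups of values in all, were examined for a library far from the others: the share of cells, mapping score, atlas day, UMIs per cell, and the levels of Foxf1, Hand1, Stat3, Grb10, Igf2, Cst3 and Akr1e1. In 5 of them the gap between the extreme library and its nearest neighbour, as a part of the range of the group, was above Dixon's 95% critical value for 4 samples. Chance flags about 1 in 20 groups of independent values, a rate that need not hold for libraries of which some share an embryo.

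The share of lateral plate mesoderm in E9.5 WT D was 1.59%, with a gap of 0.983 of the range. The other 4 rest on few UMIs. Stat3 was at 4.60 CPM in WT D, from 7 UMIs, and at 0 in the other WT libraries. Akr1e1 was at 34.7 CPM in WT C, from 1 UMI in 2 cells, with a gap of 0.862. Hand1 was at 217 CPM in null A, from 23 UMIs in 4 cells, with a gap of 0.884, and Grb10 at 48.1 CPM in null B, from 5 UMIs in 2 cells, with a gap of 0.856.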

How the results depend on the processing

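No paired analysis was possible because the library names carry no replicate number or embryo pool from the labels. A count within a fixed ratio of the main count, or a value that kept its sign and its call, was labelled the same. So was an uncalled value whose sign changed by less than its SE, or by less than the spread within groups in permutation tests. Over all alternatives, 173 of the main values and counts were labelled the same and 34 moved, and of the single genes 571 were labelled the same, 16 newly passed, 73 no longer passed, and 5 moved. These 5, none called, changed sign with a library left out, namely Hand1 (-0.20) and Foxf1 (-0.21) for genotype at E8.5 and Foxf1 for stage in null (-0.59), each without E8.5 null B, Isl1 for stage in null (-0.31 without E8.5 null A) and Bmp4 for stage in WT (0.05 without E7.5 WT A). The 13 calls at E7.5 became 43 with no filter on low counts, 6 in cells thinned to 10000 UMIs and 8 in 1 fit over all libraries, and ranged from 2 to 14 with a library left out (2 without null A, 6 without null B, 7 without WT B). The single call at E8.5 became 0 with limma-voom, with DESeq2 size factors, with at least 10 UMIs in every library of 1 group and without null cells lacking a tdTomato UMI, 2 with no fold threshold, 4 in 1 fit and 19 with no filter, and ranged from 0 (without WT B) to 8 (without null A or null B), with 3 without WT A. The stage calls in WT were 453 with DESeq2, 426 in thinned cells and 1636 with no fold threshold, and 390 (without E8.5 WT A) to 763 with a library left out, with 427 without E7.5 WT B. Those in null were 302, 241 and 793, and 248 (without E8.5 null A) to 642. The interaction ranged from 0 to 3 calls (3 without E8.5 null A) and the comparisons with other tissues stayed at 0. For the genotype and stage calls, each library was left out within the fit over all libraries. Those counts thus differ from the main ones in the fit as well as in the libraries. Where a group kept a single library, its spread was taken to be that of the other groups.

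With a library left out, the log2 fold change of the share ranged from -1.08 to 0.75 at E7.5, -0.24 to 0.17 at E8.5 and -0.88 to 1.80 (without WT D) at E9.5, and its stage differences from -1.25 to 0.99 (E8.5 against E7.5), -1.47 to 1.38 (E9.5 against E7.5) and -0.87 to 1.73 (E9.5 against E8.5). The share over all stages ranged from -0.499 to 0.992 points, the atlas day from -0.138 to -0.0391, UMIs per cell from 5423 to 12251, the mitochondrial percent from -0.220 to 0.0719 and Stat3 from -5.47 to -4.87 CPM. The causes were not tested. The alternatives chosen after seeing the data were the interaction of E8.5 with E7.5, the stage comparison in null cells, the stage differences of the share with E7.5 and leaving out extra-embryonic types. A minimum of 50 cells per library could not be run, and depth limits E9.5 and genes of a few UMIs.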

Other observations

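Xist, the non-coding RNA that silences an X chromosome in female cells, was not among the genes tested. In lateral plate mesoderm it gave 436 and 1008 UMIs in E7.5 WT A and B against 15 and 1 in E7.5 null A and B, and 0 and 256 UMIs in E8.5 WT A and B against 0 in both E8.5 null libraries. The part of the mix of sexes among the host cells in the differences between WT and null was not tested.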
